A study of Mus musculus with 24 samples.

Results

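The 6 genes described here encode 4 secreted matricellular proteins, Thbs1, Thbs2, Ccn1 (also named Cyr61) and Ccn2 (also named Ctgf), and a pair of cytoplasmic proteins of the Hippo pathway, Amotl2 and Ajuba. They are 6 of the 55359 genes counted, were matched by their mouse symbols, and were chosen by name with earlier results of these wells known, so their differences between ethanol and control wells are given as a description and not as a test. All 6 passed the filter on low counts in every comparison, and the lowest count of any of them in any well was 23. The cells were immature oligodendrocytes, the cells that go on to form myelin, taken by O4 magnetic sorting from the cortex of C57BL6/J pups on postnatal days 5 to 7, plated on poly-D-lysine and laminin, and differentiated for 3 days, mainly with triiodothyronine. Ethanol followed for 3 days. Experiment 1 held 6 wells with 30 mM ethanol and 6 control wells without ethanol, and experiment 2 held 6 wells with 10 mM ethanol and 6 control wells without ethanol. All 4 groups shared the strain, the sort, the coating and the differentiation. Control cultures stood in an incubator of their own, and each dose was used in 1 experiment, so neither ethanol and incubator nor dose and experiment can be told apart. The labels name the wells biological replicates without saying whether they came from separate cultures or animals, so the p-values measure the spread between wells.

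Matricellular proteins are secreted into the extracellular matrix and act on cells through surface receptors rather than as structural fibres. Thrombospondin-1, the product of Thbs1, binds CD47 and CD36 and can release active TGF-beta from its latent complex, and thrombospondins made by astrocytes promote synapse formation in the brain. Ccn1 and Ccn2 bind integrins and are standard readouts of YAP and TAZ, co-activators that switch on genes together with TEAD factors when the Hippo kinases are inactive. Amotl2 binds YAP and holds it back, Ajuba binds the LATS kinases and limits them, and both genes are also used as YAP target genes.

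Total counts ranged from 1184609 to 1817028 per well, and a floor of 3 counts equalled 1.65 to 2.53 CPM, covering counting error only. CPM, the unit of all levels here, is the count scaled to the raw total of the well. The log2 CPM behind the correlations also used normalization factors. Reads came from the 3′ end of transcripts, and levels are not compared between genes. Oligodendrocyte markers were abundant in all 24 wells, with a summed level of 7 markers between 6224 and 13971 CPM. The highest sum came from replicate 1 at 30 mM, and the highest in the other 3 groups was 8387 CPM. Astrocyte markers summed to between 3392 and 5629 CPM, so the cultures also held astrocyte RNA. Microglial markers summed to 113 to 210 CPM in experiment 1 and 1241 to 1735 CPM in experiment 2. Endothelial markers summed to 36.0 to 72.2 CPM, and Cldn5 among them never exceeded 1 count. In bulk RNA, fewer cells of a type and less RNA per cell cannot be told apart.

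Promoter sequence was available for 4 of the 6 genes (Ccn1, Amotl2, Ajuba and Thbs2) from RefSeq on GRCm38.p6, as the 250 bases before the annotated start. Sequences of 3 motifs were searched on both strands: CATTCC, the core of the site bound by TEAD factors, TGANTCA, the site of AP-1, and the CArG box of SRF. CATTCC was found once in the Ccn1 window, at 103 to 98 bases before the start, once in the Amotl2 window, at 65 to 60 bases before the start, and at 2 places in the Ajuba window, 186 to 181 and 164 to 159 bases before the start. The Thbs2 window held none. TGANTCA and the CArG box were found in none of the 4 windows. Among 32851 mouse promoter windows of the same length, 12.6% held CATTCC, 6.75% held TGANTCA and 1.47% held a CArG box. The 3 windows with CATTCC are printed because they show where the TEAD core lies in genes whose levels are given below. The sequences read 5′ to 3′ on the gene's own strand, with CATTCC in capitals. Ccn1 lies at chr3:145649986-145650235 on the minus strand, Amotl2 at chr9:102717554-102717803 on the plus strand, and Ajuba at chr14:54577662-54577911 on the minus strand. A match is a description of letters and not evidence of binding.
Ccn1: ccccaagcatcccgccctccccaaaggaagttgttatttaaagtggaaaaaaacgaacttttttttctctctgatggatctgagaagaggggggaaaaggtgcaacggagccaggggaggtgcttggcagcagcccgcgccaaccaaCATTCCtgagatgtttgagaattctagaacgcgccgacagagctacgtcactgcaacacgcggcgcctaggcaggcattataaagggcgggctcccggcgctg
Amotl2: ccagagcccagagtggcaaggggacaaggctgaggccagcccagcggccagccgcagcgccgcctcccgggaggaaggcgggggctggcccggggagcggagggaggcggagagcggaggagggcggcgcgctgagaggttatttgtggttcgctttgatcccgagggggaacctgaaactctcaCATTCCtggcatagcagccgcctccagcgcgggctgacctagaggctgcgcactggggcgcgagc
Ajuba: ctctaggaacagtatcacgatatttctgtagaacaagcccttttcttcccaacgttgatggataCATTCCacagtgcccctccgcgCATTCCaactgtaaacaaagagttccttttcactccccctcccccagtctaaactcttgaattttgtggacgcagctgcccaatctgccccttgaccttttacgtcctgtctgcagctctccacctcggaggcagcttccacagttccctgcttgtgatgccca

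Thbs1 (ENSMUSG00000040152) was lower with ethanol at both doses. At 30 mM its level was 88.6 ± 7.08 CPM (SD, n = 6; lowest 75.2, median 90.5, highest 93.9), against 162 ± 22.4 CPM in the controls of experiment 1 (lowest 125, median 165, highest 189). At 10 mM it was 122 ± 12.3 CPM (SD, n = 6; lowest 108, median 122, highest 137), against 188 ± 7.34 CPM in the controls of experiment 2 (lowest 179, median 190.5, highest 196). At each dose the highest ethanol well lay below the lowest control well. The log2 fold change was -0.88 (SE 0.0890), or 1.83-fold lower, at 30 mM and -0.60 (SE 0.0697), or 1.52-fold lower, at 10 mM. By unadjusted p, Thbs1 ranked 19th of 13235 genes at 30 mM and 2nd of 13538 at 10 mM. The change at 30 mM minus that at 10 mM was -0.28 (SE 0.117), which was not called (edgeR adjusted p = 0.176, and 0.0701 to 0.315 over the alternatives). In order of mean level the groups ran from the controls of experiment 2 through the controls of experiment 1 and 10 mM to 30 mM. Neighbouring groups in this order overlapped except 10 mM and 30 mM.

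Thbs2 (ENSMUSG00000023885), the closest relative of Thbs1 and, unlike it, not known as an activator of TGF-beta, showed almost the same mean level with and without ethanol. At 30 mM it was 39.0 ± 6.82 CPM (SD, n = 6; lowest 27.2, median 40.2, highest 47.4), and its controls were at 39.6 ± 4.20 CPM (lowest 35.0, median 39.0, highest 46.2). At 10 mM it was 52.6 ± 6.21 CPM (SD, n = 6; lowest 41.4, median 53.2, highest 59.8), and its controls were at 53.0 ± 2.74 CPM (lowest 49.3, median 52.5, highest 57.6). In both experiments the ethanol wells reached beyond the controls on both sides. The log2 fold change was -0.01 (95% interval -0.26 to 0.24) at 30 mM and -0.01 (95% interval -0.20 to 0.19) at 10 mM, so the intervals exclude changes of the size of that of Thbs1. The mean was higher in both groups of experiment 2 than in both groups of experiment 1, although neighbouring groups overlapped throughout the order.

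Ccn1 (ENSMUSG00000028195), an early response gene for an integrin-binding protein, lay below its controls at 30 mM and above them at 10 mM. At 30 mM it was 194 ± 25.8 CPM (SD, n = 6; lowest 151, median 198, highest 223), against 265 ± 45.0 CPM in its controls (lowest 199, median 282, highest 317). At 10 mM it was 160 ± 10.9 CPM (SD, n = 6; lowest 148.5, median 157, highest 180), against 118.5 ± 6.88 CPM in its controls (lowest 108.5, median 120, highest 126). The groups overlapped at 30 mM, where 3 of 6 ethanol wells lay below every control well, and did not overlap at 10 mM, where all 6 lay above every control well. The log2 fold change was -0.46 (SE 0.0894), or 1.37-fold lower, at 30 mM and 0.44 (SE 0.0713), or 1.36-fold higher, at 10 mM. The difference between these changes was -0.91 (SE 0.121, 95% interval -1.15 to -0.67), and Ccn1 ranked 10th of 14655 genes by the p of that difference. Its 4 group means ran from the controls of experiment 1 through 30 mM and 10 mM to the controls of experiment 2, so that both ethanol groups stood between the control groups. In that order only 10 mM and the controls of experiment 2 did not overlap.

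Ccn2 (ENSMUSG00000019997), whose product also binds integrins and growth factors, did not follow Ccn1 at 10 mM. At 30 mM it was 55.7 ± 8.48 CPM (SD, n = 6; lowest 41.2, median 57.0, highest 64.8), against 68.5 ± 5.71 CPM in its controls (lowest 62.2, median 68.0, highest 79.0). At 10 mM it was 36.1 ± 3.44 CPM (SD, n = 6; lowest 32.1, median 35.7, highest 41.8), against 38.3 ± 4.42 CPM in its controls (lowest 32.0, median 38.3, highest 45.5). At 30 mM, 4 of 6 ethanol wells lay below every control well, and at 10 mM the controls spanned the whole range of the ethanol wells. The log2 fold change was -0.30 (SE 0.102) at 30 mM and -0.08 (SE 0.118, 95% interval -0.31 to 0.15) at 10 mM. The interval at 10 mM does not reach the change of Ccn1 at that dose.

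The pair of cytoplasmic regulators had lower means than their controls at 30 mM, and their mean differences at 10 mM had opposite signs. Amotl2 (ENSMUSG00000032531) was at 53.8 ± 9.85 CPM (SD, n = 6; lowest 43.7, median 50.9, highest 69.6) at 30 mM and 64.8 ± 10.9 CPM in its controls (lowest 48.9, median 64.9, highest 80.4). At 10 mM it was at 37.6 ± 4.96 CPM (SD, n = 6; lowest 32.2, median 35.6, highest 44.7), and its controls were at 33.5 ± 6.00 CPM (lowest 23.7, median 34.4, highest 41.7). The groups overlapped widely in both experiments. Ajuba (ENSMUSG00000022178) was at 37.2 ± 1.89 CPM (SD, n = 6; lowest 35.5, median 36.2, highest 40.4) at 30 mM and 50.2 ± 7.80 CPM in its controls (lowest 40.2, median 48.8, highest 59.7). At 10 mM Ajuba was at 22.2 ± 5.08 CPM (SD, n = 6; lowest 17.2, median 21.1, highest 29.5), against 24.3 ± 2.26 CPM (lowest 20.8, median 24.1, highest 27.0). At 30 mM, 5 of 6 wells lay below every control well for Ajuba, and the sixth, at 40.4 CPM, lay just above the lowest of them, at 40.2 CPM. The log2 fold changes of Amotl2 were -0.29 (SE 0.116) at 30 mM and 0.16 (SE 0.125) at 10 mM. Those of Ajuba were -0.43 (SE 0.118) and -0.12 (SE 0.151).

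**Figure D1:**
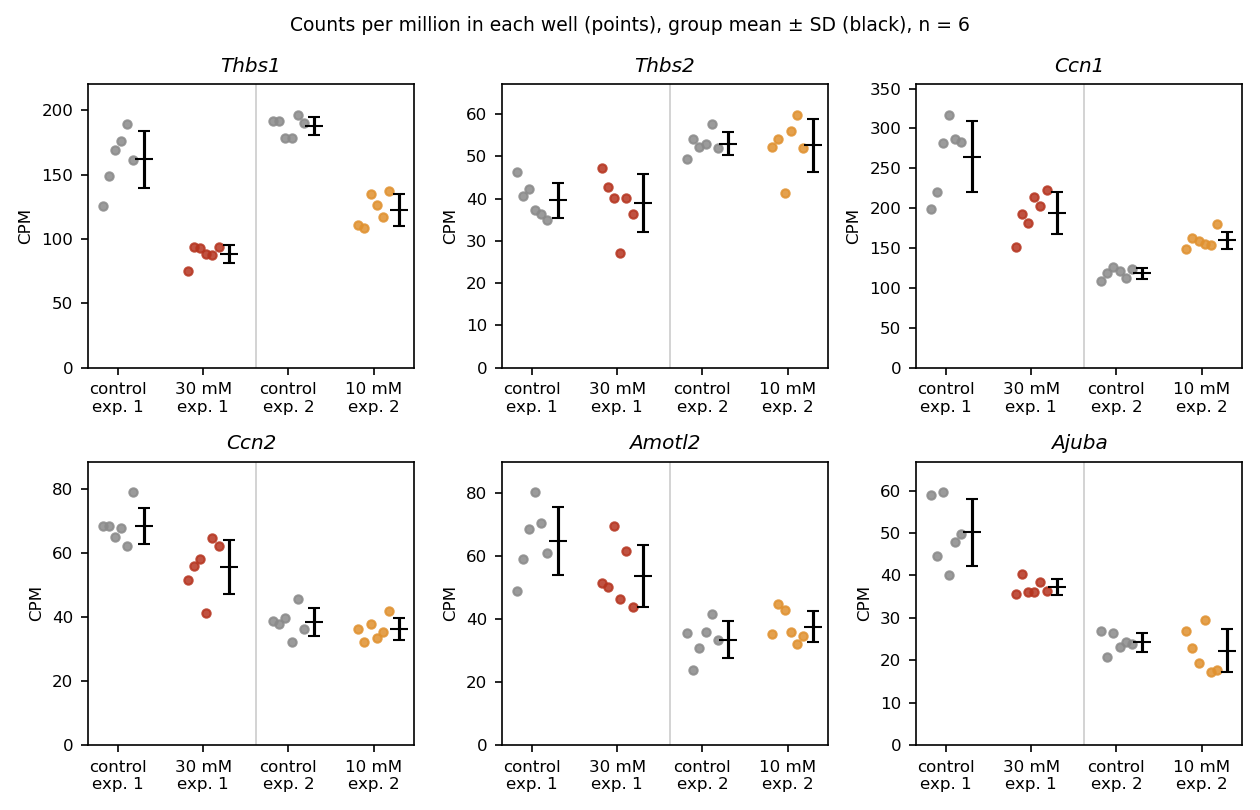
CPM (vertical axis, starting at 0, 1 panel per gene) of the 6 genes in each of the 24 wells (points), with the group mean ± SD beside them in black. Thbs1 wells with ethanol lie below their controls in both experiments, Ccn1 wells lie below or within the controls at 30 mM and above them at 10 mM, and Ccn1, Ccn2, Amotl2 and Ajuba are higher in the controls of experiment 1 than in those of experiment 2.

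Taking an adjusted p under 0.05 in edgeR's quasi-likelihood test as a call, 3 of the 6 genes were called lower at 30 mM (Thbs1, Ccn1 and Ajuba) and none higher, where 9.67% of 13235 tested genes were called, 6.65% lower and 3.02% higher. All 6 log2 fold changes were below 0, with a median of -0.36 beside 0.02 for all genes tested. At 10 mM, Thbs1 was called lower and Ccn1 higher, where 0.657% of 13538 genes were called, 0.266% lower and 0.391% higher. The median of the 6 was -0.04 beside 0.00 for all genes. For the difference between the doses 1 of 6, Ccn1, was called, where 3.28% of 14655 genes were called, 2.4% with a lower and 0.88% with a higher change at 30 mM. Groups without overlap were seen for 1 of the 6 genes at 30 mM, where 4.98% of all tested genes had none (3.77% with ethanol lower and 1.21% with ethanol higher). At 10 mM they were seen for 2 of 6, where 0.894% of all genes had none (0.421% lower and 0.473% higher). Since these comparisons were in view when the genes were chosen, nothing is read from the counts. Leaving out replicate 3 of the controls of experiment 1 moved Ajuba at 30 mM to -0.36 and ended its call (edgeR adjusted p = 0.0648).

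**Figure D2:**
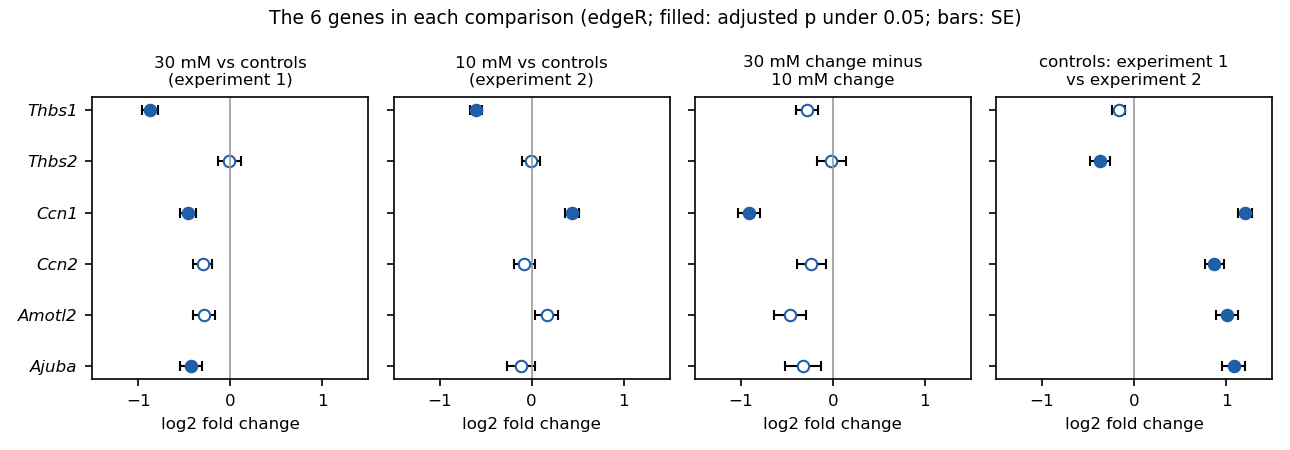
Log2 fold change (horizontal axis) of each gene in 4 comparisons, 1 panel each, with bars for the SE and filled points for an adjusted p under 0.05 in edgeR. Ccn1 changes sides between 30 mM (-0.46) and 10 mM (0.44), Thbs1 lies left of 0 at both doses, Thbs2 lies at -0.01 at both, and 4 of the 6 genes lie right of 0 when the controls are compared.

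Fibroblast markers were lower at 30 mM, as Thbs1, Ccn1 and Ajuba were. The 5 markers (Col1a1, Col1a2, Col3a1, Dcn and Lum) summed to 207 to 267 CPM at 30 mM and 364 to 570 CPM in the controls. Of these, 4 of 5 were called lower, where 6.65% of all genes were, with Col1a2 at -0.96 (SE 0.0931). At 10 mM they summed to 509 to 560 CPM against 501 to 697 CPM in the controls. Here 2 of 5, Dcn (-0.39) and Col3a1 (-0.38), were called lower, where 0.266% of all genes were. Dcn lost this call in 5 of 17 alternatives (highest adjusted p = 0.205) and Col3a1 in 8 of 17 (highest adjusted p = 0.268), DESeq2 and the joint fit among them for both. Astrocyte markers moved the other way at 30 mM, with 4 of 6 called higher (4432 to 5629 CPM against 3392 to 4015 CPM in sum), where 3.02% of all genes were. At 10 mM 0 of 6 were called by edgeR, with 0 at an unadjusted p under 0.05. Of 4 tested pericyte and smooth muscle markers, 0 were called by edgeR at 30 mM, with 0 at an unadjusted p under 0.05 and a median of -0.01. The contractile genes Acta2 (-1.60), Tagln (-1.68), Cnn1 (-1.91) and Myl9 (-1.54) were not in this marker list. They were called lower at 30 mM and are given below with the SRF and MRTF targets. Oligodendrocyte markers were called higher for 6 of 7 genes at 30 mM and 2 of 7 at 10 mM, where 3.02% and 0.391% of all genes were. Cnp, counted at both doses, lost its call at 30 mM with DESeq2 (adjusted p = 0.0508) and at 10 mM in the joint fit (adjusted p = 0.136). The part of these cell types in the levels of Thbs1, Ccn1, Ccn2, Amotl2 and Ajuba was not tested. Without replicate 1 at 30 mM, the well with the highest oligodendrocyte sum, the log2 fold changes at 30 mM were -0.83 for Thbs1, -0.40 for Ccn1 and -0.42 for Ajuba.

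The levels without ethanol were compared between the experiments, and these values too are a description, since results of all 4 groups were known when the genes were chosen. Ccn1, Ccn2, Amotl2 and Ajuba were all higher in the controls of experiment 1, and Thbs2 was lower. Ccn1 differed by 1.21 (SE 0.0781) on the log2 scale, or 2.31-fold. Ajuba differed by 1.08 (SE 0.128), Amotl2 by 1.01 (SE 0.117) and Ccn2 by 0.87 (SE 0.103). For each of these 4 genes all 6 control wells of experiment 1 lay above all 6 of experiment 2. Thbs2 differed by -0.37 (SE 0.108), again with no overlap. Thbs1 gave -0.17 (SE 0.0716, edgeR adjusted p = 0.0518), was not called and overlapped, and it passed the threshold without replicate 4 (edgeR adjusted p = 0.0358) or replicate 5 (edgeR adjusted p = 0.0163) of the controls of experiment 1. Of the 6 genes 5 were called, where 43.6% of 13479 tested genes were called, 21.3% higher and 22.3% lower, and groups without overlap were seen for 5 of 6 genes and for 18.9% of all genes (8.88% higher and 10% lower). For Ccn1 the difference between the control groups (1.21) stood beside changes of -0.46 and 0.44 with ethanol, a contrast of sizes that was not tested. All 6 tested microglial markers were called lower in the controls of experiment 1 (median -2.94), as were 4 of 5 fibroblast markers (median -0.42), and their part was not tested. Each dose was compared with the controls of its own experiment, and these controls also enter this contrast, so the contrasts are not independent.

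Other target genes of YAP and TAZ were counted from a list of 19. This list and the related lists below were chosen with earlier results of these wells known. Their counts beside the shares of all genes are therefore a description and not a test. At 30 mM, 5 of 18 tested targets were called lower and none higher, where 6.65% of all genes were called lower, with a median log2 fold change of -0.01 beside 0.02 for all genes. Igfbp3, which encodes a carrier protein of insulin-like growth factors, was at 467 ± 38.0 CPM in the controls and 316 ± 51.7 CPM at 30 mM (SD, n = 6), and fell by 0.56 on the log2 scale (edgeR adjusted p = 1.11e-06). Axl, a receptor tyrosine kinase, fell by 0.53 (edgeR adjusted p = 0.000124), Nuak2, a kinase of the actomyosin network, by 0.53 (edgeR adjusted p = 0.000192), Myof, a membrane repair protein, by 0.94 (edgeR adjusted p = 0.000509) and Lats2, a Hippo kinase, by 0.41 (edgeR adjusted p = 0.00124). Ankrd1, another standard target, which was not called, was at 12.1 ± 5.58 CPM against 12.6 ± 8.35 CPM (SD, n = 6). At 10 mM, 1 of 17 targets was called lower, where 0.266% of all genes were. This was Igfbp3, which fell by 0.24 (edgeR adjusted p = 0.0416) and lost its call in 13 of 17 alternative analyses (highest adjusted p = 0.279). The median was -0.05 beside 0.00 for all genes. For the difference between the doses 2 of 18 were called, where 3.28% of all genes were. These were Axl (-0.59, edgeR adjusted p = 0.00823) and Nuak2 (-0.50, edgeR adjusted p = 0.0463, lost in 13 of 28 alternatives). Between the controls 7 of 18 were higher in experiment 1 and 1 was lower, where 43.6% of all genes were called in either direction, with a median of 0.20 beside -0.01 for all genes. Those with the smallest p were Nuak2 (1.14), Crim1 (1.25), Lats2 (0.85), Igfbp3 (0.51) and Axl (0.66), on the log2 scale.

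The RNAs of YAP and TAZ passed no threshold with ethanol, and the activity of the proteins was not measured. Yap1 was at 32.9 ± 3.80 CPM at 30 mM and 33.9 ± 4.69 CPM in its controls, and at 19.5 ± 2.26 CPM at 10 mM and 17.9 ± 2.21 CPM in its controls (SD, n = 6). Its log2 fold changes were -0.06 (95% interval -0.31 to 0.19) and 0.12 (95% interval -0.20 to 0.44). Those of Wwtr1, the gene of TAZ, were 0.11 (95% interval -0.05 to 0.26) and -0.16 (95% interval -0.33 to 0.01). Of 26 tested genes of the Hippo pathway and the partners of YAP and TAZ (28 listed), 4 were called lower and none higher at 30 mM, beside 6.65% of all genes called lower, with a median of -0.09. These were Vgll3, a TEAD cofactor (-0.75, edgeR adjusted p = 0.000355), Wwc1, the scaffold KIBRA (-0.36, edgeR adjusted p = 0.00107), Lats2, which is also among the targets above, and Wtip, a relative of Ajuba (-0.66, edgeR adjusted p = 0.0149). Lats2 was at 69.6 to 73.4 CPM at 30 mM and at 83.9 to 105 CPM in the controls, with no overlap. Without replicate 4 of the controls of experiment 1, Wtip was no longer called (edgeR adjusted p = 0.0510). At 10 mM 0 of 26 were called by edgeR or DESeq2, with 1 at an unadjusted p under 0.05. For the difference between the doses 0 of 26 were called by edgeR or DESeq2, with 7 at an unadjusted p under 0.05, and up to 2 were called in the alternatives. Between the controls, where 21.3% of all genes were called higher and 22.3% lower, 9 of 26 were higher in experiment 1 and 4 lower. Wwc1 (1.09), Vgll3 (1.66), Lats2 (0.85), Taok3 (-0.58) and Taok1 (-0.44) had the smallest p, and the higher ones included Yap1 (0.98, edgeR adjusted p = 5.05e-08), Wwtr1 (0.39, edgeR adjusted p = 3.76e-05) and Amot, a relative of Amotl2 (1.05, edgeR adjusted p = 1.30e-08).

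Most other members of the thrombospondin and CCN families were low or undetected. Ccn6, Thbs4 and Comp had at most 2 counts in any well, below the floor of 3. Of 3 tested family members at 30 mM, 1 was called lower, where 6.65% of all genes were. This was Ccn5, a CCN protein that lacks the C-terminal domain of its relatives. Ccn5 was at 32.2 ± 6.86 CPM in the controls and 15.9 ± 4.11 CPM at 30 mM (SD, n = 6), and fell by 1.01 on the log2 scale (edgeR adjusted p = 5.83e-05). At 10 mM 0 of 2 were called by edgeR or DESeq2, and 0 had an unadjusted p under 0.05. Between the controls all 4 tested were called, where 43.6% of all genes were. Ccn5 (2.65), Ccn4 (1.25) and Thbs3 (0.40) were higher in experiment 1, as Ccn1 and Ccn2 were, and Ccn3 (-1.47) was lower.

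Among the receptors of these proteins, Cd47, which binds thrombospondin-1, was not called, at 185 ± 11.6 CPM at 30 mM against 171 ± 8.75 CPM in its controls, a log2 fold change of 0.11 (95% interval -0.03 to 0.24). Of 12 tested receptor genes at 30 mM, 2 integrin subunits were called lower, Itga3 (-1.10, edgeR adjusted p = 7.10e-05) and Itgb1 (-0.26, edgeR adjusted p = 0.00776), where 6.65% of all genes were, with a median of -0.05 over the list. At 10 mM 0 of 14 were called by edgeR or DESeq2, with 3 at an unadjusted p under 0.05. The change of Itga3 differed between the doses (-1.46, edgeR adjusted p = 0.00209), the only call among 14 by edgeR, where DESeq2 called 2. Of all genes, edgeR called 3.28% in this comparison. Between the controls, where 21.3% of all genes were called higher and 22.3% lower, 2 of 14 were higher and 6 lower in experiment 1. The lower ones included Itgam (-3.62) and Itgb2 (-2.90), integrin subunits of microglia, which moved with the microglial markers.

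Genes of TGF-beta signalling, the pathway that thrombospondin-1 can activate, were counted from a list of their own. At 30 mM 2 of 12 tested genes were called, where 9.67% of all genes were. Bambi, a pseudoreceptor, was lower (-0.74, edgeR adjusted p = 0.0199), and Smad7, an inhibitor induced by the pathway, was higher (0.43, edgeR adjusted p = 0.0425). Bambi lost its call in 2 of 17 alternative analyses, without replicate 5 at 30 mM and without replicate 4 of the controls (highest adjusted p = 0.110). Smad7 lost it in 10 of 17 (highest adjusted p = 0.117), DESeq2 among them and most of the others with single wells left out. At 10 mM 1 of 12 was called, where 0.657% of all genes were. This was the receptor gene Tgfbr1, which was lower (-0.40, edgeR adjusted p = 0.0416), and it lost its call in 15 of 17 (highest adjusted p = 0.216). Medians were -0.10 at 30 mM and -0.05 at 10 mM. Between the controls, where 21.3% of all genes were called higher and 22.3% lower, 3 of 12 were higher in experiment 1 and 4 lower. Tgfb3, a TGF-beta ligand, had the smallest p of these (1.71, edgeR adjusted p = 4.23e-17).

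Targets of SRF and its cofactors MRTF, which control contractile genes and share some targets with YAP, were mostly lower at 30 mM. Of 11 tested, 7 were called lower, where 6.65% of all genes were, with a median log2 fold change of -0.83. Myl9 (-1.54), Cnn1 (-1.91), Acta2 (-1.60), Tpm1 (-0.83) and Tagln (-1.68) had the smallest p. At 10 mM, 2 of 9 were called higher and 0 were called lower by edgeR, where 0.391% of all genes were called higher and 0.266% lower. Yet 6 of 9 log2 fold changes were below 0, with a median of -0.18, and 6 of 9 genes had an unadjusted p under 0.05. Without replicate 6 at 10 mM 4 of the genes were called. The lowest value was that of Cnn1 (-0.76, edgeR adjusted p = 0.0650). The genes called higher were the early response genes Egr1 (1.14, edgeR adjusted p = 1.50e-12) and Fos (0.38, edgeR adjusted p = 0.0184). Fos lost its call in 5 of 17 alternatives: DESeq2, the joint fit of all wells, and without replicate 4 at 10 mM or replicate 4 or 5 of its controls (highest adjusted p = 0.0641). Ccn1, also an early response gene, was higher at 10 mM as well. At 30 mM, where Ccn1 was called lower, neither Egr1 nor Fos was called. The change differed between the doses for 6 of 11, where 2.4% of all genes were called in that direction. All 6 had a lower change at 30 mM than at 10 mM. Egr1 (-0.71) was among them, although it was not called lower at 30 mM. Between the controls, where 21.3% of all genes were called higher and 22.3% lower, 7 of 10 were higher in experiment 1 and none lower. Among other matricellular genes, 4 of 10 tested were called lower at 30 mM, where 6.65% of all genes were, while the median of the list was 0.09. Spp1, osteopontin, fell by 0.94, Tnc, tenascin-C, by 0.80, Postn, periostin, by 1.26 and Sparc by 0.25. At 10 mM 0 of 9 were called by edgeR or DESeq2, with 1 at an unadjusted p under 0.05. The change of 2 of 10, Spp1 and Tnc, was called lower at 30 mM than at 10 mM, where 2.4% of all genes were. Spp1 was at 195 ± 20.7 CPM in the controls of experiment 1 and 2004 ± 108 CPM in those of experiment 2 (SD, n = 6). This difference was opposite to that of Ccn1 and Ccn2. It had the direction of the microglial markers (median -2.94), whose part in it was not tested.

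**Figure D3:**
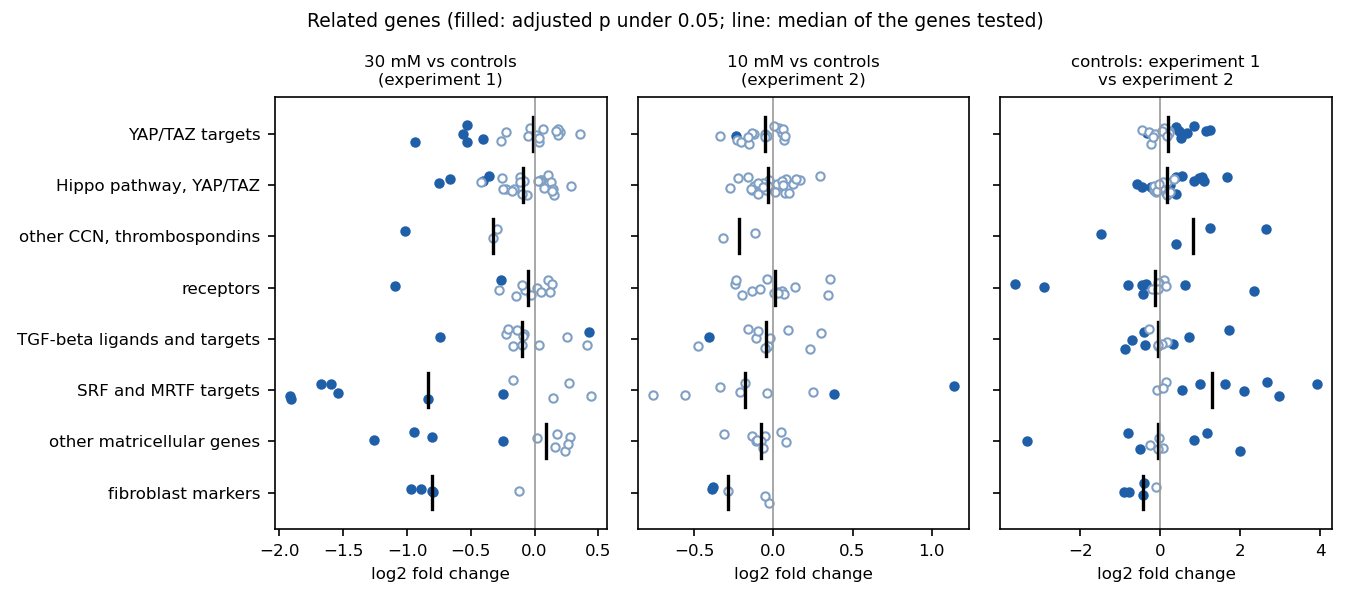
Log2 fold change (horizontal axis, scaled separately in each panel) of the tested genes of 7 related lists and of the fibroblast markers at 30 mM, at 10 mM and between the controls, with filled points for an adjusted p under 0.05 in edgeR and a black line at each list's median. At 30 mM the medians of the SRF and MRTF targets (-0.83) and the fibroblast markers (-0.80) lie far to the left, while that of the YAP/TAZ targets lies at -0.01.

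Variation between wells of the same group was used to ask which of the 6 genes move together. Over 24 wells, with the group means removed, Thbs1 and Ccn1 gave Pearson's r = 0.73 (permutation p = 0.00121, adjusted p = 0.0181 over 15 pairs) and Spearman's rho = 0.64 (permutation p = 0.0036, adjusted p = 0.054), two-sided, with wells shuffled within groups. Without the 2 wells farthest from the median of Thbs1, replicates 1 and 5 of the controls of experiment 1, r was 0.62. Replicate 1 at 30 mM stayed in that calculation. This well also held the highest oligodendrocyte marker sum, 13971 CPM. The part of cell composition in the correlation was not tested. The correlation was 0.85 within experiment 1 and 0.36 within experiment 2, and this difference was not tested. Replicates 1 and 2 of the controls of experiment 1 and replicate 1 at 30 mM were low in both genes, at -0.35 and -0.39, -0.13 and -0.27, and -0.19 and -0.30 for Thbs1 and Ccn1 on the log2 scale. None of the other 14 pairs passed the adjusted threshold, and r over all 15 ranged from -0.39 to 0.73 with a median of 0.04. Ccn1 and Ccn2 gave r = 0.04 (rho = 0.13, permutation p = 0.852 and 0.525, adjusted 0.968 and 0.787).

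**Figure D4:**
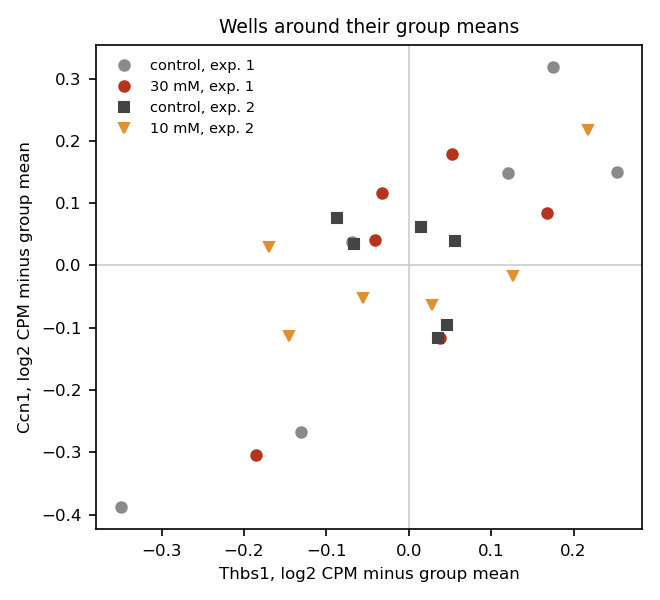
Log2 CPM, scaled with TMM factors, of Thbs1 (horizontal axis) and Ccn1 (vertical axis) in each of the 24 wells minus the mean of the well's group, with 1 symbol per group. Control wells of experiment 1 spread furthest, from -0.35 to 0.25 for Thbs1 and from -0.39 to 0.32 for Ccn1. Over all 24 wells, those low in one gene tend to be low in the other. The controls of experiment 2 do not show this. Their replicates 1, 3, 4 and 5 lie on opposite sides of the mean for Thbs1 and Ccn1, and replicates 2 and 6 on the same side.

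Genes with the most similar profile were listed for Thbs1, Ccn1 and Ccn2 by Pearson's r of log2 CPM over the 24 wells after removal of each experiment's mean, among 13350 genes. These values include the ethanol difference and share libraries and depth, and they are a description. Those of Thbs1 were Stmn2 (r = 0.894), Cnn1 (0.892), Cyp1b1 (0.889), Akap12 (0.881) and Hbegf (0.876), all with a lower mean at both doses than in the matching controls. Hbegf, which encodes a ligand of the EGF receptor, was at 109 CPM at 30 mM and 175 CPM in its controls, and at 102 and 131 CPM in experiment 2. Those of Ccn1 were Pdia6 (0.745), Gypc (0.730), Sobp (0.717), Crip2 (0.710) and Pcgf2 (0.695), all with a lower mean than controls at 30 mM and a higher one at 10 mM. Those of Ccn2 were Enkur (0.827), Anxa5 (0.789), Myt1 (0.768), Cxcl16 (0.759) and Plin2 (0.758). The 3 lists share no gene.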

How the data were processed

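The authors deposited raw counts per gene from 3′ tag sequencing of 24 wells (single-end reads of 100 bases). The submitters' processing notes name cutadapt 1.18, STAR and the GRCm39 build. The counter, the annotation release, the use of strand and the removal of PCR copies are not given in the sources used here, so reads of overlapping or antisense genes cannot be told apart. Symbols were matched by Ensembl identifier for 52083 of 55359 genes (94.1%). Chi-square per degree of freedom between wells of a group was 1.08 to 3.14 over 60 pairs. Each well was counted as 1 sample, although this ratio cannot show whether wells came from separate cultures or animals.

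Counts were tested with edgeR 4.0.16 (R 4.3.3): TMM normalization, the filterByExpr filter (minimum count 10), the quasi-likelihood test and Benjamini-Hochberg adjustment over all genes tested. Ethanol wells were fitted against the controls of the same experiment, the contrast of the 2 doses as an interaction in a fit of 24 wells, and both control groups against each other. The standard error is the log2 fold change divided by the square root of F. The scripts were tested on simulated data. Alternatives used RLE factors, no filter, DESeq2 1.42.0, a joint fit, a replicate block and each well left out. Correlations, and the search for similar profiles, used log2 CPM with totals scaled by TMM factors (prior count 2). The correlations were tested with 100000 permutations.

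The 6 genes and the related lists were chosen with earlier results of these data known. Named from each list were up to 5 called genes per comparison with the smallest p, and for each of Thbs1, Ccn1 and Ccn2 the 5 genes with the highest r and a mean log2 CPM of at least 3; Ankrd1, Yap1, Wwtr1, Amot and Cd47 were added for their roles. A gene of the TGF-beta list is not reported here and was left out of its counts.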

Additional observations from a re-analysis of the deposited data

Results flagged for a closer look

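Thbs1 in replicate 1 at 30 mM, at 75.2 CPM, lay apart from the other 5 wells of its group, which held 87.8 to 93.9 CPM. Ccn2 in replicate 6 of the controls of experiment 1, at 79.0 CPM, lay apart from the other 5, at 62.2 to 68.4 CPM. Such gaps were looked for in 24 sets of 6 wells with Dixon's criterion, where chance gives 1.2, and 2 were found. The change of Ccn1 differed between 30 mM and 10 mM by -0.91 on the log2 scale, with a fall at 30 mM and a rise at 10 mM, and dose and experiment cannot be told apart.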

How the results depend on the processing

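The signs of Thbs1, Ccn1, Ccn2, Amotl2 and Ajuba held in every alternative of all 4 comparisons. Over the alternatives the log2 fold change of Thbs1 ran from -0.94 to -0.83 at 30 mM and from -0.65 to -0.57 at 10 mM. That of Ccn1 ran from -0.53 to -0.39 at 30 mM, from 0.39 to 0.46 at 10 mM and up to -0.86 for the difference. Thbs2, near 0, changed sign at 10 mM without the low-count filter (0.02) and in the joint fit (0.00), and with single wells left out it ran from -0.09 to 0.08 at 30 mM, from -0.04 to 0.06 at 10 mM and from -0.11 to 0.06 for the difference. Calls at 30 mM were gained by Ccn2 in the joint fit (adjusted p = 0.0317) and without replicate 5 at 30 mM (0.0430), and by Amotl2 without replicate 1 of the controls of experiment 1 (0.0498). The number of all genes called at 10 mM was 89, against 39 with DESeq2, 21 in the joint fit and 37 to 95 with single wells left out. For the difference between doses it was 481, and 329 to 759 with single wells left out, with 759 without replicate 1 and 723 without replicate 2 at 30 mM. With a replicate block 1208 genes were called at 30 mM, 68 at 10 mM and 461 for the difference, and of the 6 genes 3, 2 and 1, as without the block. Wells with the same number deviated together by r from -0.169 to 0.234, and 1 of 12 matched its own number best. No strong pairing by number was seen, and a weak one could be missed by this check. The cause of these shifts was not tested. The 6 genes had 23 or more counts per well, while depth left Ccn6, Thbs4 and Comp, with at most 2, untested.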
